A study of Pseudochlorella pringsheimii with 2 samples.

Results

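A group of 145 abundant transcripts had at most 0.5 times the level in the GmDof4 library that they had in the CK library. They are contigs, that is, transcript sequences pieced together from the reads without a genome, and they are 145 of 13566 in all. The members were selected on their measured levels, with at least 100 RPKM in CK and a GmDof4 level of at most 0.5 times the CK level. RPKM is the number of reads per kb of contig and per 1000000 reads counted in the library. The lower level in GmDof4 is therefore how the members were found and not a result. Contigs 59485 and 73041 were left out beforehand, and neither reached 100 RPKM in CK.

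The GmDof4 library came from Dof4-1, a strain of the green alga *Chlorella ellipsoidea* IGDB-1 (entered as *Pseudochlorella pringsheimii*) carrying soybean GmDof4 behind a maize ubiquitin promoter. The CK library came from CK-1, which carries the vector pCK without the GmDof4 cassette. Both strains were made by electroporation, carry the marker nptII and go back to clones picked on 30 mg/L G418, and both were then grown mixotrophically without antibiotic for 120 h at 25°C and a light level of 100 μmol photons per m2 and s. The cultures of a strain were mixed before RNA isolation, so each strain has 1 library, no difference has a replicate check, and no test was made. Effects of GmDof4, of the place where each vector was inserted and of the cultures cannot be told apart.

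Dof proteins are plant transcription factors with a single zinc finger that binds DNA at short motifs with an AAAG core. They are known both as activators and as repressors in land plants. Chlorella is unicellular, and in mixotrophic culture it uses light and an organic carbon source side by side. An RPKM value is a share of the sequenced mRNA, so a lower value can come from fewer molecules of that transcript or from more of the others.

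The counted reads were 14589660 in GmDof4 and 14823559 in CK. The median over all contigs was 24.4 RPKM in GmDof4 and 22.6 RPKM in CK, so a level of 100 RPKM lies well above the typical contig. The transgene transcript itself could not be identified in these read counts, since no contig is paired with it and no sequences were used. By RT-PCR the paper detected it in the strain of the GmDof4 library and not in CK. Intervals are exact 95% Clopper-Pearson intervals, for a ratio taken from the GmDof4 share of the reads of a contig. They cover counting error only, and reads amplified by PCR without molecular identifiers are not independent molecules.

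In GmDof4 the members ran from 0.911 RPKM over a median of 84.8 to 599 RPKM, whereas in CK they ran from 102 over a median of 239.8 to 1309.5 RPKM. In GmDof4, 62 of the 145 members were still at 100 RPKM or above, 20 were below 50 RPKM and 3 were below the median contig of that library. All but these 3 thus stayed above the typical contig of GmDof4. By rank among all contigs, with 1 as the highest RPKM, the median member held place 2381 in GmDof4 and place 760 in CK. Over all members, 232235 reads were counted in GmDof4 and 633140 in CK. This is 1.592% of the GmDof4 reads (1.585 to 1.598) and 4.271% of the CK reads (4.261 to 4.281). The 10 members with the most CK reads held 24.7% of the CK reads of the group, and the first 20 held 37.8%.

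**Figure D1:**
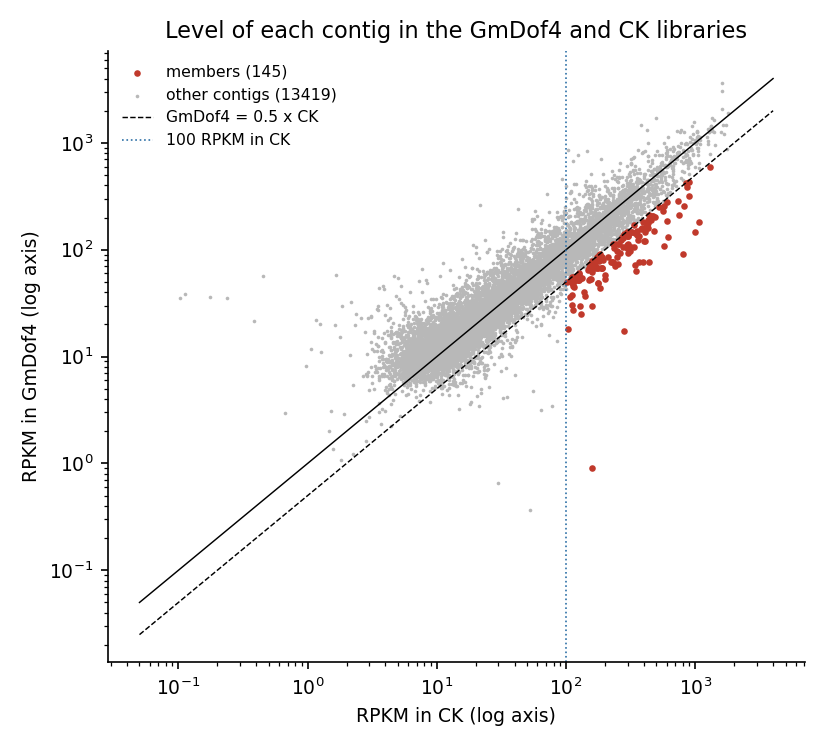
Each point is a contig, with its RPKM in CK on the x axis and in GmDof4 on the y axis, both logarithmic. Red points are the 145 members, right of the dotted line at 100 RPKM in CK and below the dashed line at 0.5 times CK, and the solid line marks equal levels. Contigs with 0 reads in a library are not drawn.

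Of the 2026 contigs with at least 100 RPKM in CK, 145 or 7.16% were at least halved in GmDof4, and 60 or 2.96% were at least doubled. Among all contigs with a read in CK, 2.4% were at least halved. The log2 ratio of GmDof4 over CK had a median of -1.29 over the members, with quartiles of -1.67 and -1.15. It had a median of -0.14 over the 2026 abundant contigs and of 0.09 over all contigs. Among the members, 38 had a ratio above 0.45, 36 had one above 0.4 and up to 0.45, and 53 had one above 0.25 and up to 0.4. A further 18 were at least 4-fold lower, with a ratio of at most 0.25, and 3 of these were at least 8-fold lower. For 27 members the upper end of the interval passed 0.5, and for 118 it did not. Over the 145 members the Spearman correlation of the log2 ratio was -0.12 with CK RPKM and -0.02 with length. The selection cuts the range of ratio and CK level, so these values describe the members only. Over the 2026 abundant contigs the correlations were -0.07 and -0.0005. CK RPKM is part of the ratio, and all points share both libraries.

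**Figure D2:**
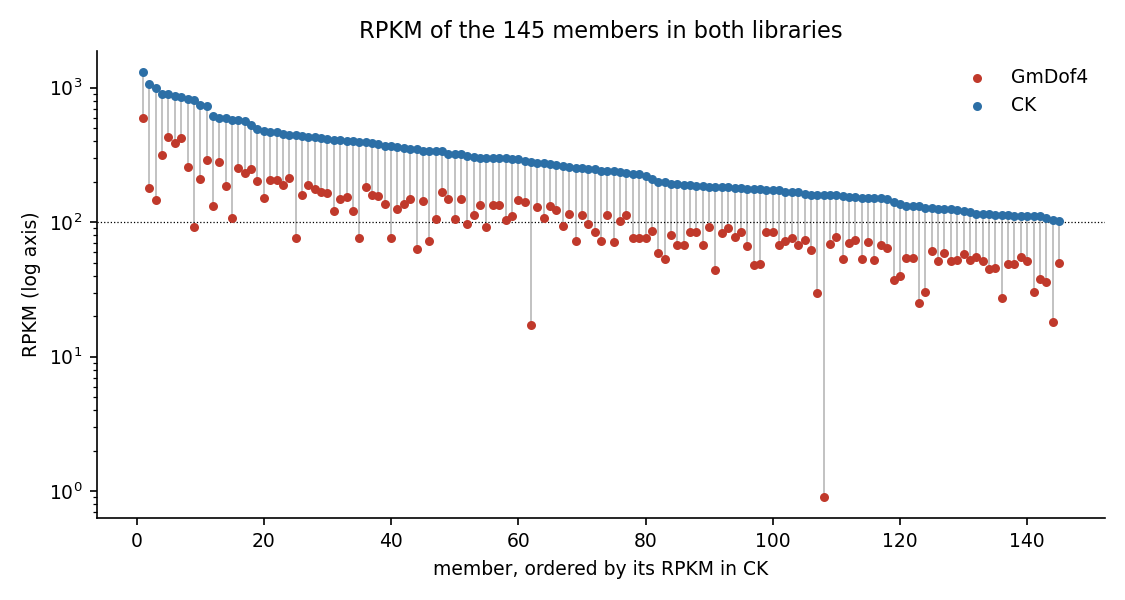
RPKM of each of the 145 members on a logarithmic axis, ordered from the highest to the lowest RPKM in CK, with GmDof4 in red, CK in blue and a grey line joining both values of a member. The dotted line marks 100 RPKM. Most grey lines are of similar length, and the longest belong to contigs 85715 and 70774, at 0.911 and 17.3 RPKM in GmDof4.

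The limits of the selection cut through a continuous range. Just inside the ratio limit lay members of 480, 473 and 3217 bp with ratios of 0.4995, 0.4994 and 0.4994. Just outside lay contigs of 352, 1913 and 797 bp with ratios of 0.501, 0.502 and 0.503. The first of these is one of the most abundant contigs of CK, with 883 RPKM in GmDof4 and 1762 RPKM in CK. At the abundance limit, the lowest members had 102, 104 and 108 RPKM in CK. The halved contigs closest below it had 99.4, 98.8 and 95.2 RPKM in CK.

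A protein name is printed in the paper for 7 of the members, and the other 138 are not paired with a name in the sources used here. The names belong to the proteins that the contigs matched best, and they were printed mainly for contigs past 4-fold in these same libraries. The named members are thus among the strongest by choice, and all 7 are in the group of 18 at least 4-fold lower.

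Both named contigs with FAD in their printed name were high in CK. Contig 68852, matching a FAD linked oxidase domain protein, had 1994 GmDof4 reads against 10882 CK reads, which is 107 RPKM in GmDof4 and 576 RPKM in CK. Its log2 ratio was -2.43 (-2.49 to -2.36). Contig 68856, matching a FAD-dependent oxidoreductase, had 868 GmDof4 reads against 4224 CK reads, or 76.7 RPKM in GmDof4 and 367 RPKM in CK. Its log2 ratio was -2.26 (-2.37 to -2.15). Enzymes of both kinds hold flavin adenine dinucleotide and use it to take electrons from their substrates. The intervals of these contigs overlap. Contig 68854, which lies between them by number, carries no name and was picked here after its values were seen. It had 426 GmDof4 reads against 2239 CK reads and a log2 ratio of -2.37 (-2.52 to -2.22), whose interval overlaps both.

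Contig 76145, matching serine threonine protein kinase 9, was the most abundant named member in CK. It had 1720 GmDof4 reads against 8202 CK reads, or 132 RPKM in GmDof4 and 619.6 RPKM in CK. Its log2 ratio was -2.23 (-2.31 to -2.16). Kinases of this class transfer phosphate to serine and threonine residues of other proteins. The next abundant contig by number, 76152, has no name and was again picked by its values. It had 3375 GmDof4 reads against 20260 CK reads and a log2 ratio of -2.56 (-2.62 to -2.51), whose interval does not overlap that of the kinase. In reads it held place 1091 in GmDof4 and place 8 in CK.

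Contig 72299, matching endoribonuclease L-PSP, had 951 GmDof4 reads against 5594 CK reads, or 76.2 RPKM in GmDof4 and 441 RPKM in CK. Its log2 ratio was -2.53 (-2.63 to -2.43). Proteins of this family, called RidA in bacteria, hydrolyse reactive imines that arise when amino acids are broken down. Contig 56771, matching a periplasmic L-amino acid catalytic subunit, was the longest named member with 2207 bp. It had 885 GmDof4 reads against 3718 CK reads and a log2 ratio of -2.05 (-2.16 to -1.94). The printed name does not give the reaction of this subunit. In *Chlamydomonas reinhardtii*, another green alga, a periplasmic L-amino acid oxidase frees ammonium from amino acids outside the plasma membrane.

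Contig 81453, matching a methyltransferase of the FkbM family, was close to the abundance limit, with 18.2 RPKM in GmDof4 and 104 RPKM in CK. It had 360 GmDof4 reads against 2076 CK reads and a log2 ratio of -2.50 (-2.67 to -2.34). FkbM itself adds a methyl group to a compound made by *Streptomyces* bacteria. Contig 70774 matched a hypothetical protein that the paper lists under transport. By the values in the paper, this contig had the weakest protein match of the 7 named members. With 256 GmDof4 reads against 4235 CK reads, or 17.3 RPKM in GmDof4 and 281 RPKM in CK, it had the lowest ratio of the named members, a log2 ratio of -4.03 (-4.21 to -3.84). Together the 7 named members held 6.15% of the CK reads of the group.

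**Figure D3:**
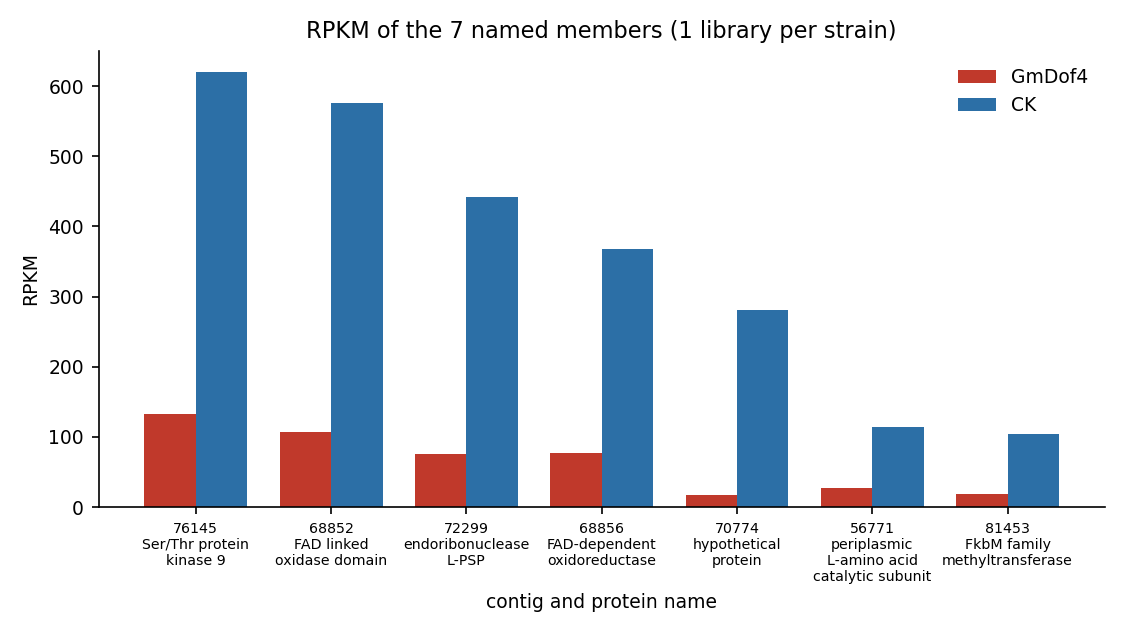
Bars give the RPKM, from 0, of the 7 members with a printed protein name, GmDof4 in red and CK in blue, ordered by level in CK. There is 1 library per strain and so no error bar. The highest GmDof4 bar, 132 RPKM for contig 76145, is near the lowest CK bars, 114 RPKM for contig 56771 and 104 RPKM for contig 81453.

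The paper names 15 contigs as lower in GmDof4, and the 8 that are not members all had less than 100 RPKM in CK. The phospholipase D alpha 2 contig 59485, with 26.3 RPKM in GmDof4 and 82.8 RPKM in CK, and the glutathione S-transferase related contig 73041, with 15.8 RPKM in GmDof4 and 74.4 RPKM in CK, came closest. Both purine carriers were lower in level. The uric acid-xanthine permease contig 62487 had 4.15 RPKM in GmDof4 and 34.6 RPKM in CK, and the purine permease contig 80480 had 7.33 RPKM in GmDof4 and 31.5 RPKM in CK. The alpha/beta-hydrolase contig 83571 had 6.71 RPKM in GmDof4 and 40.4 RPKM in CK. The aminohydrolase contig 59899, named after the herbicide breakdown product hydroxydechloroatrazine, had 7.87 RPKM in GmDof4 and 34.1 RPKM in CK. The cytochrome P450 contig 93291 had 0.650 RPKM in GmDof4 and 29.6 RPKM in CK. This rests on 5 GmDof4 reads against 231 CK reads, with a log2 ratio of -5.51 (-7.14 to -4.26). The fatty acid synthase contig 86271, with 9.11 RPKM in GmDof4 and 18.5 RPKM in CK, was the furthest from the abundance limit. It had 82 GmDof4 reads against 169 CK reads, and its ratio of 0.493 had an interval (0.374 to 0.646) that passed 0.5.

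The 11 members without a name that were at least 4-fold lower include the extreme of the group. Contig 85715, of 978 bp, had 13 GmDof4 reads against 2292 CK reads, which is 0.911 RPKM in GmDof4 and 158 RPKM in CK. Its log2 ratio of -7.44 (-8.35 to -6.66) stood apart from the next member, contig 70774. By RPKM it held place 13563 of 13566 in GmDof4 and place 1283 in CK.

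Contigs 77325 and 77308, singled out after their values were seen, had the next largest differences. Contig 77325 had 773 GmDof4 reads against 6907 CK reads and a log2 ratio of -3.14 (-3.25 to -3.03). Its companion 77308 had 1009 GmDof4 reads against 6864 CK reads and a log2 ratio of -2.74 (-2.84 to -2.65). They follow each other in number among the abundant contigs, both are short (577 and 469 bp), and their intervals do not overlap. The remaining unnamed members at least 4-fold lower, apart from contigs 68854 and 76152, were 6 contigs of 325 to 1631 bp with 25.05 to 72.2 RPKM in GmDof4 and 128 to 349 RPKM in CK. Their log2 ratios lay between -2.47 and -2.05.

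The member highest in CK lay nearer the ratio limit. Contig 57444, of 466 bp, had the highest CK level of the members. It had 4071 GmDof4 reads against 9046 CK reads, or 599 RPKM in GmDof4 and 1309.5 RPKM in CK, a log2 ratio of -1.13 (-1.18 to -1.08). A member of 3176 bp had more reads than any other member, 11823 in GmDof4 and 27008 in CK. It held place 55 in GmDof4 and place 2 in CK by reads, with a log2 ratio of -1.17 (-1.20 to -1.14).

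Whether more abundant transcripts were halved than doubled depended on the library in which abundance was required. With 100 RPKM required in GmDof4, 62 of 1984 contigs (3.12%) were at least halved and 137 (6.91%) at least doubled. With 100 RPKM required as the mean of both libraries, 116 of 2035 (5.7%) were at least halved and 100 (4.91%) at least doubled. With CK, as in the selection, the counts were 145 and 60 of 2026. A minimum in CK favours contigs that are high there, and the same holds for GmDof4. The 116 are all members by construction, as a halved contig with such a mean has more than 100 RPKM in CK. They held 1.46% of the GmDof4 reads and 3.89% of the CK reads, and the 100 doubled contigs held 4.56% of the GmDof4 reads and 1.69% of the CK reads.

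The share of halved contigs was higher in the classes with more CK RPKM. It was 64 of 1053 (6.08%) at 100 to under 200 RPKM, 47 of 638 (7.37%) at 200 to under 400 RPKM and 34 of 335 (10.1%) at 400 RPKM or more. The share of doubled contigs in these classes was 3.7%, 2.51% and 1.49%. This order was not found with classes of the mean RPKM of both libraries, where 54 of 1081 (5%), 49 of 632 (7.75%) and 13 of 322 (4.04%) were halved. In the highest of these classes 21 contigs (6.52%) were doubled.

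**Figure D4:**
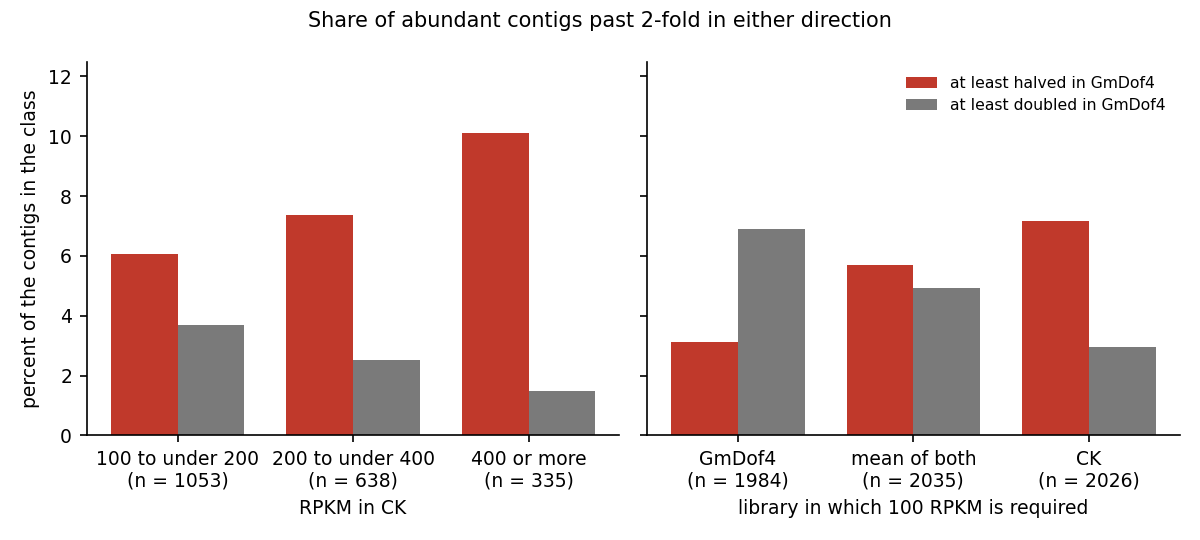
Bars give the percentage of contigs at least halved (red) and at least doubled (grey) in GmDof4. The left panel divides the contigs of at least 100 RPKM in CK by their CK level, with 10.1% halved in the highest class, and the right panel requires 100 RPKM in GmDof4, in the mean of both libraries, or in CK, with 3.12%, 5.7% and 7.16% halved.

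The members were 300 to 6819 bp long with a median of 803 bp, and the other 1881 abundant contigs had a median of 944 bp. Of the abundant contigs of 300 to under 500 bp, 36 of 426 (8.45%) were members. The share was 56 of 662 (8.46%) at 500 to under 1000 bp and 53 of 938 (5.65%) at 1000 bp or more. The members thus held slightly more short and mid-sized contigs than the rest of the abundant contigs did.

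Each contig name in the files ends in a letter, R or U, which the sources used here do not explain. Among the members 73 end in R and 72 in U, or 50.3% and 49.7%. Of all abundant contigs 51.2% end in R, and of all 13566 contigs 15% do. The members were thus close to the other abundant contigs in this respect. Among short contigs, of 300 to under 500 bp, the shares for both letters lay further apart, a difference that was not tested. Of those ending in U, 18 of 105 (17.1%) were members and 1 was doubled, whereas of those ending in R 18 of 321 (5.61%) were members and 18 were doubled. The short members ending in U were partly close together by number. Between contigs 63737 and 63988 lay 3 of them, and between contigs 72138 and 72177 lay 2. Of the rest, some followed or preceded another member among the abundant contigs and some did not. These counts may therefore not be of separate transcripts.

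The members were not spread evenly over the contig numbers. What the numbers follow is also not explained there. When members at most 10 numbers apart were joined, the 145 members fell into 98 groups, of which 30 held 77 members and 68 held 1 member each. Of the abundant contigs with a member at most 10 numbers away as the next abundant contig on either side, 72 of 149 (48.3%) were members themselves. Where the abundant contigs next to them within 10 numbers were all non-members, 46 of 1332 (3.45%) were members. With no abundant contig within 10 numbers it was 27 of 545 (4.95%). Over all abundant contigs the share was 7.16%.

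Within the 30 joined groups the median span between the highest and lowest log2 ratio of a group was 0.19. The interquartile range over all members was 0.52, which is not a like measure, as a span over few contigs tends to be small. Part of the narrow span also follows from the selection limit. Over all pairs of successive abundant contigs, members or not, Pearson's r between their log2 ratios was 0.74 for the 155 pairs 1 number apart. It was 0.59 for the 388 pairs 2 to under 5 numbers apart, 0.32 for 403 pairs at 5 to under 10, 0.16 for 450 pairs at 10 to under 20, 0.20 for 393 pairs at 20 to under 50 and -0.02 for 184 pairs at 50 to under 200. These are descriptions across contigs of the same libraries. Whether contigs with close numbers are pieces of one transcript or similar copies, and how reads matching several of them were counted, was not tested, as no contig sequences were used. The number of separate genes behind the members is therefore unknown.

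**Figure D5:**
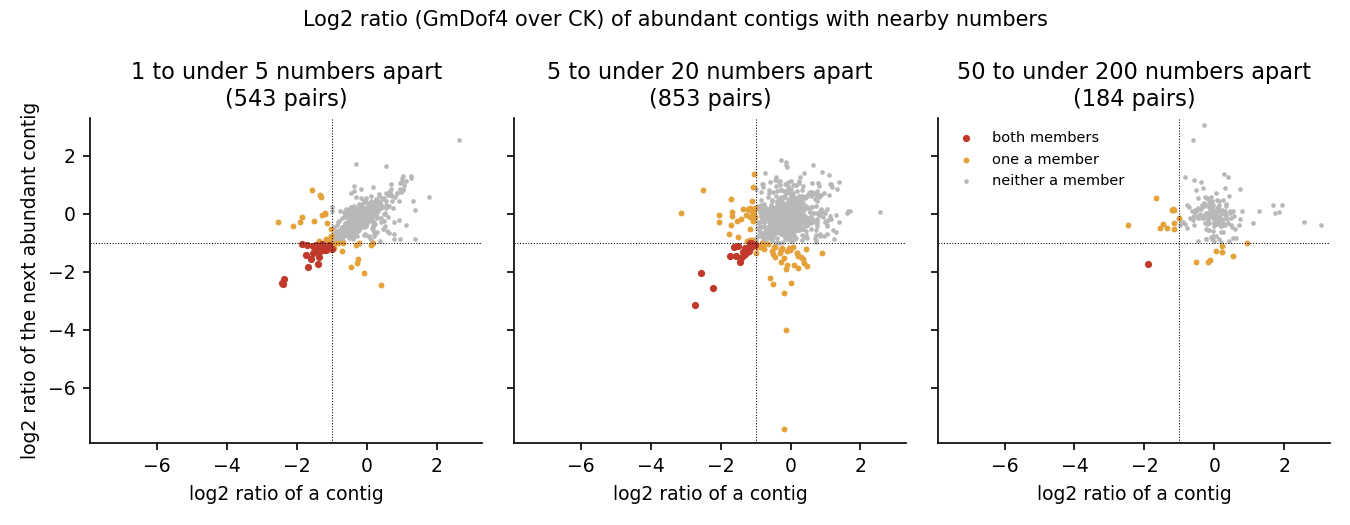
Each point is a pair of abundant contigs that follow each other in number, with the log2 ratio (GmDof4 over CK) of the first on the x axis and of the second on the y axis. The panels hold pairs 1 to under 5, 5 to under 20 and 50 to under 200 numbers apart, red marks pairs of members, orange pairs with 1 member and grey the rest, and dotted lines mark a ratio of 0.5. Points follow the diagonal in the first panel and not in the last.

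The longest stretch of successive abundant contigs that were all members ran from contig 63737 to contig 63988 and was singled out after its values were seen. It held 10 contigs over a span of 251 numbers, with 5699 bp in total, and 8709 reads in GmDof4 against 27923 in CK. Their levels were 36.1 to 210.2 RPKM in GmDof4 and 108 to 746 RPKM in CK. The log2 ratios stayed between -1.91 and -1.43. The abundant contigs on either side are non-members by the definition of a stretch. They had a log2 ratio of -0.24 before the stretch and 1.77 after it. In the second longest, 8 contigs from 72138 to 72177 with 6664 bp in total had 7794 GmDof4 reads against 19395 CK reads. Their log2 ratios were between -1.58 and -1.01, and the abundant contigs on either side had -0.41 and -0.14. A further 2 stretches held 4 members, 9 held 3, and 16 held 2. The remaining 60 members had abundant neighbours by number that were not members.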

How the data were processed

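RNA-seq was analysed from 1 library of the GmDof4 strain Dof4-1 and 1 of the CK strain. SOAPdenovo assembly by the authors joined the reads of these and a further library into contigs, those of 300 bp or more were retained, and single-end reads were mapped with BWA and counted per contig. The sources used here give neither versions nor the treatment of reads with several matches. The deposited counts are whole reads without normalization. The deposited RPKM values were made by the authors and equal reads per kb and per 1000000 counted reads within 5.23e-12. Contig length is the second part of the contig name.

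Ratios are GmDof4 over CK without a pseudocount. No test was made, since there is 1 library per strain. Intervals were calculated in scipy 1.17.1 with Python 3.11.15, and the code was tried on simulated independent reads. That checks the calculation only, since reads amplified by PCR are not independent. Alternatives were TMM scaling (edgeR 4.0.16), median-of-ratios scaling (DESeq2 1.42.0), totals that leave out the 10 contigs highest in reads, other limits of level, ratio and length, and a pseudocount of 1 RPKM. The grouping by contig number and the division by the last letter of the name were added after the data were seen. The members and lists were chosen with earlier results of these data known. Named in the text are all members with a printed protein name, the other contigs the paper lists as lower, and the unnamed members with the highest CK RPKM and the lowest ratio. Others are named where the text says so. No sequences were used.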

Additional observations from a re-analysis of the deposited data

How the results depend on the processing

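The number of members, 145, was 176 under TMM and 182 under median-of-ratios scaling. All 145 were among them by construction, as both scalings lower every log2 ratio. It was 81 with 200 RPKM required in CK, 71 with a ratio of at most 0.4, 18 with at most 0.25 and 53 with contigs of at least 1000 bp, all by construction subsets. Divided by the last letter of the name it was 72 for U and 73 for R. The percentage of abundant contigs at least halved, 7.16%, became 8.69% under TMM, 8.98% under median-of-ratios scaling, 5.15% with 50 RPKM in CK, 5.7% with 100 RPKM as the mean, 3.5% with a ratio of at most 0.4 and 0.888% with at most 0.25. It was 5.82% with the upper end of the interval at most 0.5, and 5.65% with contigs of at least 1000 bp. The members' share of CK reads was 4.15% without the 10 contigs with the most reads, 1 of which is a member. Their median log2 ratio was -1.37 under TMM and -1.39 under median-of-ratios scaling, as these shift every log2 ratio by -0.08 and -0.09. All 36 recomputed log2 ratios of the 9 members named by rule stayed past 2-fold. Under TMM, median-of-ratios scaling and the changed totals this was fixed in advance, as each lowers every log2 ratio. Of the 36, 29 lay inside the counting interval of the main ratio and 7 outside it. The largest change, for contig 85715 with a pseudocount of 1 RPKM, gave -6.38. The number of groups by contig number was 115 when joined at most 5 numbers apart and 88 at most 20, against 98. No paired analysis was possible because each strain has 1 library, and no replicate could be left out.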

Other observations

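Contigs under 100 RPKM in CK were not part of the selection, and their ratios near the members are given here as values. Of the 510 such contigs with reads in both libraries and a number at most 10 from a member, 22 (4.31%) were at least halved in GmDof4. Among the 11028 farther away 158 (1.43%) were. The median log2 ratio was 0.09 near the members and 0.13 farther away. Of the 77 abundant contigs beside a member that were not members, 59 (76.6%) had a log2 ratio below 0, and 1 was at least doubled. Among the other 1804 abundant non-members 1104 (61.2%) were below 0. This comparison was made after the data were seen and has no test.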
